A study of Mus musculus with 4 samples.

Results

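Calcium pumps, calcium release channels and the proteins of store-operated calcium entry were examined as 1 group of 10 genes chosen by symbol: Atp2a2, Atp2a3, Atp2b1, Atp2b4, Itpr1, Itpr2, Itpr3, Stim1, Stim2 and Orai1. Of these, 9 were measured among 18194 genes in all, and Itpr1 was not analysed here. Each gene was read from its probe set with the highest mean log2 signal over 4 arrays, and its other probe sets are given beside it.

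C57Bl/6J mice entered the study at 9 weeks of age and ate a high-fat diet for 21 weeks, after which RNA was taken from epididymal fat, a visceral fat depot of the lower abdomen. The standard diet drew 60% of its energy from fat, was low in calcium at 0.4%, and is represented by 1 array. The high-calcium whey diet, also high in fat, contained 1.8% calcium and whey protein isolate (2 arrays, replicates 1 and 2). The diet of the remaining array is not settled by its label, so it entered no comparison and its values are given as those of the array of open diet. Calcium and whey protein were given together, so their parts cannot be told apart, and neither can the standard diet and the 1 mouse that stands for it. Per diet, 10 mice were fed and 2 were profiled, and the number of arrays limits the precision of every value. The comparison asks how a diet rich in calcium and whey protein alters the expression profile of fat in diet-induced obesity.

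Cytosolic calcium is kept low by pumps and is raised in bursts through channels. Pumps of the SERCA family (the Atp2a genes) move calcium from the cytosol into the endoplasmic reticulum, and pumps of the PMCA family (the Atp2b genes) push it out of the cell. Inositol trisphosphate receptors (the Itpr genes) release the stored calcium when hormones activate phospholipase C. As the store empties, the STIM proteins of its membrane sense the fall and open ORAI channels in the plasma membrane, which is store-operated calcium entry. In fat cells calcium signals act on lipid storage and breakdown, and in beige fat futile cycling of calcium by SERCA pumps can produce heat.

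The promoters of 3 genes are shown because their transcripts gave contrasting patterns, described further on: Atp2a3 was higher on both high-calcium arrays, Itpr3 differed between them and Stim2 was level on its brightest probe set, all as deposited. Each window runs from 250 bases before to 50 bases after the start of the gene (RefSeq, GRCm38.p6), at chr11:72960919-72961218, plus strand, chr17:27057054-27057353, plus strand and chr5:53998273-53998572, plus strand. Capitals mark matches to the GC box GGGCGG, the core of sites bound by Sp family factors, on either strand, with overlapping matches counted separately.
Atp2a3: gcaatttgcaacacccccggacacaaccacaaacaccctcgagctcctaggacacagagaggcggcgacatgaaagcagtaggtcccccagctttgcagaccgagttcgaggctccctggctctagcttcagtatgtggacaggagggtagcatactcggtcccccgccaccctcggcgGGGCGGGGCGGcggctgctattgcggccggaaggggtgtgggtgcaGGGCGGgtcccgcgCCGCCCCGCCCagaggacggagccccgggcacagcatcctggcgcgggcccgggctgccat
Itpr3: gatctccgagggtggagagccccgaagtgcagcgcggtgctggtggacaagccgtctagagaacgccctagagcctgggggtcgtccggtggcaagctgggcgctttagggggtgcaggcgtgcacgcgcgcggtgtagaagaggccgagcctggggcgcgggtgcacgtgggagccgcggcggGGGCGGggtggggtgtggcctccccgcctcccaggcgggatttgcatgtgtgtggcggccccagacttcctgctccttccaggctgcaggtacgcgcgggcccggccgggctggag
Stim2: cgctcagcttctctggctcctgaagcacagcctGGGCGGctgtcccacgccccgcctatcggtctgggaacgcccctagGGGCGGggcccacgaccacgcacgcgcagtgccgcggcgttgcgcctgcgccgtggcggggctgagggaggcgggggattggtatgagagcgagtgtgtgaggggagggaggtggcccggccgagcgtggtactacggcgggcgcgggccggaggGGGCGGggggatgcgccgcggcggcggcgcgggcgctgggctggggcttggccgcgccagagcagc

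These windows hold 5, 1 and 3 GC boxes and have GC contents of 68.3%, 72.3% and 76.7%, where the median of 32851 RefSeq windows of this length is 52.7%. Windows were found for 8 of the 9 measured genes, all but Atp2a2, with 2 for Atp2b1. A GC box was present in 8 of these 9 windows and in 35.7% of all windows, and the window without it was that of Atp2b4. The CCAAT box (CCAAT, either strand) was present in 3 of the 9, those of Itpr2, Orai1 and Stim2, and in 37.4% of all windows. The TATA box (TATAAA, either strand) was found in 0 of the 9 and in 13.6% of all windows. These are matches of letters and not sites of binding.

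Signals are on the log2 scale of the deposited linear intensities, so negative values are intensities under 1. Probe sets differ in how brightly they report a transcript, so levels are compared between arrays and never between genes. The median of each array served as its background level: -3.38 and -3.99 for high-calcium replicates 1 and 2, -4.00 for the standard array and -4.09 for the array of open diet. Of the 9 measured genes, 8 were above background on all 4 arrays. Atp2b4 was under it on all 4. The fat cell markers Adipoq, Cidec and Lep had log2 signals of 3.16 to 5.15 on every array.

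The arrays did not carry equal amounts of transcripts from other cell types, and high-calcium replicate 1 stood apart. The log2 of the summed linear signal of 10 smooth muscle markers was 6.15 for replicate 1, against 3.63 for replicate 2, 3.61 for the standard array and 3.32 for the array of open diet. Myh11 and Tpm2, contractile proteins of smooth muscle, had log2 signals of 2.12 and 4.11 on replicate 1, and of -2.08 and 0.49 on the standard array. Replicate 1 was also highest for 5 B-cell markers (1.45, against -0.87, -0.50 and -1.05 in the same order of arrays), 5 T-cell markers (0.36, -0.86, -0.76 and -1.37) and 8 skeletal muscle markers (1.19, -0.30, -0.35 and -0.40). It was lowest for 8 macrophage markers (5.16, 5.87, 5.78 and 5.86). Of 5 epithelial markers the sum was 2.46 on replicate 1 and 1.30 on the standard array, but -0.80 and -0.57 on the other arrays, and 5 markers of the epididymis and germ line had 3.51, -1.73, 0.65 and -2.91. Within that list Defb42, a defensin of the epididymis, had 3.25 on replicate 1 and -3.21 on the standard array, whereas Prm1, a protamine of sperm, had -0.20 and -0.30. The 4 mesothelial markers had 0.997, 0.60, -0.12 and 0.76, and the 6 endothelial markers 1.19, 1.09, 1.76 and 1.07. The sum of 5 platelet markers ran from 2.26 to 2.75, but the 3 of them above background on all 4 arrays peaked on different arrays. Pf4, the brightest, was highest on replicate 2 (2.67), Itga2b on replicate 1 (-1.33) and Ppbp on the standard array (-2.17). In whole tissue, fewer cells of a type and less RNA per cell cannot be told apart.

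**Figure D1:**
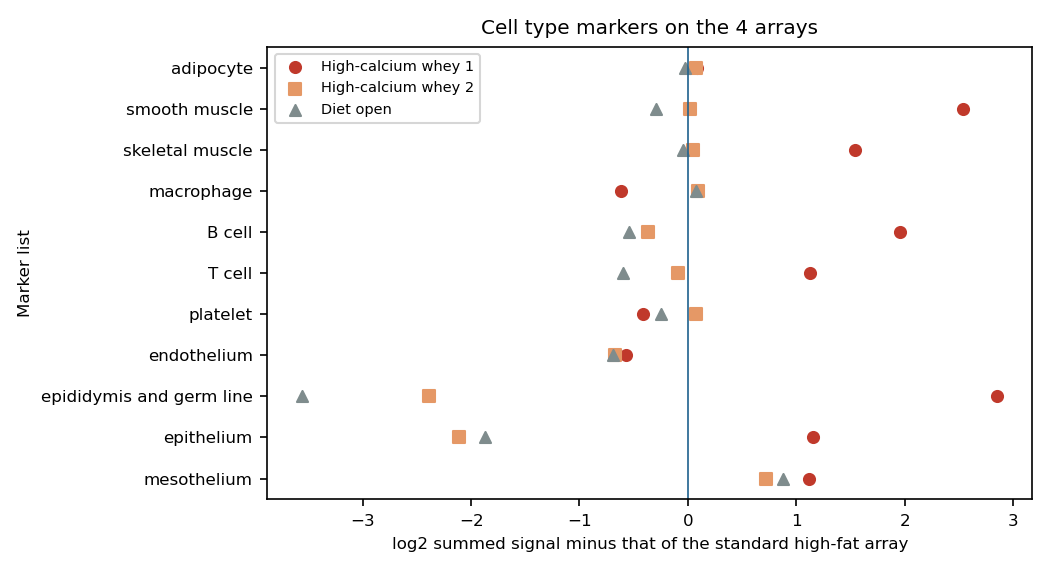
Log2 of the summed linear signal of each marker list on 3 arrays minus that on the standard high-fat array, whose level is the vertical line at 0 (1 point per array). High-calcium replicate 1 lies far above the standard array for smooth muscle (6.15 against 3.61) and below it for macrophages (5.16 against 5.78), while the fat cell markers of all arrays lie close together.

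No calcium gene of the group passed the test between the diets. limma called 0 of the 9 genes at an adjusted p under 0.05, as it called 0% of all 18194 genes. Its adjusted p was 0.978 for Atp2b4 and 0.9999 for each of the other 8. At an unadjusted p under 0.05 there was 1 member, Atp2b4, which was under background, and 898 genes in all. When limma's prior was fitted as a trend and robustly, it called 6 genes, 0 of them members. By side alone, 4 members were higher on both high-calcium arrays than on the standard array (Atp2a3, Atp2b4, Orai1 and Stim2), where 38.6% of all genes were. Lower on both arrays were 3 members (Atp2a2, Atp2b1 and Stim1), where 23.9% of all genes were. With 9 genes, these counts are close to those shares. At least 1.5-fold higher on both arrays were Atp2a3 and Atp2b4, 2 of 9, against 12.7% of all genes. At least 1.5-fold lower were 0 members, against 4.49%. Centring each array on its median lowers every difference of replicate 1 from the standard array by 0.62, of replicate 2 by 0.0093 and of their mean by 0.32. The mean difference then turned sign for Itpr2 (to -0.18) and Stim2 (to -0.28) and kept it for the other 7 members, and it turns for any other calcium gene whose mean difference as deposited lies between 0 and 0.32. After centring 2 members, Atp2a3 and Atp2b4, were higher on both arrays, beside 20.4% of all genes, and 3 were lower on both, beside 38.8%. Over all genes, 2304 were at least 1.5-fold higher and 817 lower on both arrays as deposited, and 1826 and 1382 after centring.

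Dim genes weigh heavily in those shares, so the same counts were made over the 11597 genes whose mean signal was above the mean of the array medians, which left out Atp2b4. Of the remaining 8 members, 3 were higher on both arrays (34.9% of such genes) and 3 were lower on both (26.6%). Atp2a3 alone was at least 1.5-fold higher on both, where 3.3% of these genes were, and 0 members were at least 1.5-fold lower, where 1.66% were. The median log2 difference over the 8 members was 0.085, and that over all 11597 genes was 0.031. On replicate 1 alone the median difference from the standard array was 0.071 over the 11597 genes and 0.19 over all genes. Centring lowered each difference of replicate 1 by 0.62, more than either median.

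**Figure D2:**
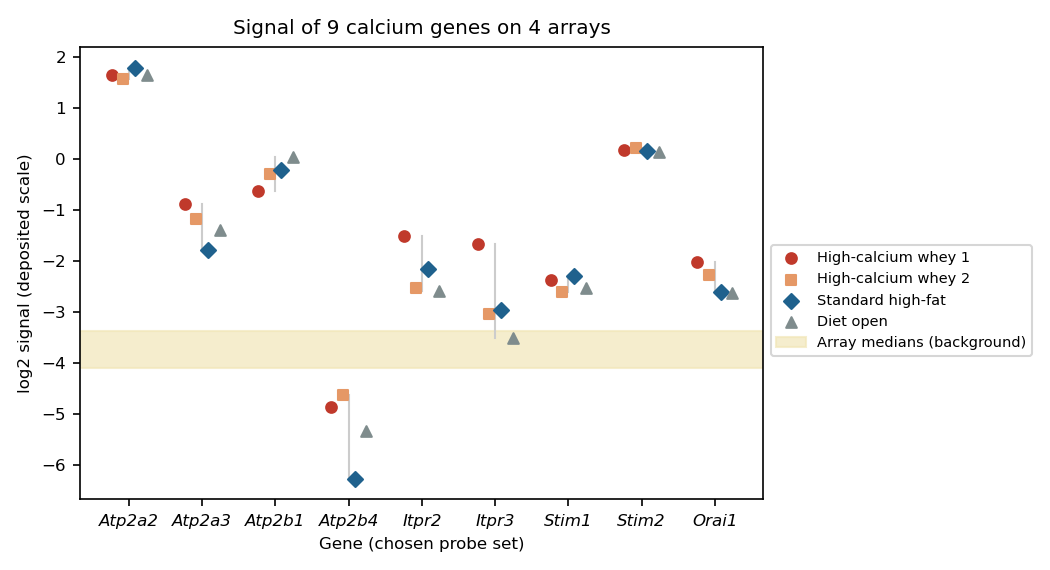
Log2 signal (deposited scale) of the chosen probe set of each gene, 1 point per array; the shaded band spans the medians of the 4 arrays, and each array has its own median within it. Stim2 points lie within 0.072 of each other, Itpr3 and Itpr2 are highest on high-calcium replicate 1, and Atp2b4 lies under the band on every array.

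Among the pumps of the endoplasmic reticulum, Atp2a3 (SERCA3, a pump known from blood, endothelial and epithelial cells) was higher on both high-calcium arrays. Atp2a2 (SERCA2, the pump of most tissues) was nearly level on its brightest probe set as deposited. The brightest Atp2a3 probe set, 1421129_a_at, had log2 signals of -0.87 and -1.17 on high-calcium replicates 1 and 2, of -1.79 on the standard array and of -1.40 on the array of open diet. The standard array was the lowest of the 4, with the array of open diet between it and the high-calcium arrays. The high-calcium arrays averaged -1.02 ± 0.21 (SD, n = 2), 1.70-fold above the standard array, 1.89-fold for replicate 1 and 1.54-fold for replicate 2. After centring the folds were 1.22 and 1.53, so that Atp2a3 was no longer at least 1.5-fold higher on both arrays. The log2 difference was 0.77 (SE 0.36), with a 95% interval from -0.56 to 2.10 that includes 0. Its absolute size exceeded that of 93.0% of the 11597 genes of higher signal. The standard array was also the lowest for the mesothelial markers, with Upk3b, a protein of the mesothelial lining, at -1.20 there and at -0.34 to 0.11 on the other arrays. The endothelial sum was highest on the standard array, as were 5 of its 6 markers, while the other, Kdr, was lowest there (-2.66 against -2.62 to -2.32). The sums of B-cell, T-cell and epithelial markers were lower on replicate 2 (-0.87, -0.86 and -0.80) than on the standard array (-0.50, -0.76 and 1.30). Some single markers went the other way and were higher on both high-calcium arrays than on the standard array. These were 1 of 5 B-cell markers (Cd22), 2 of 5 T-cell markers (Cd3e and Cd8a) and 1 of 5 epithelial markers (Epcam). The other markers of these lists were lower on replicate 2 than on the standard array. The part of these cell types in the value of Atp2a3 was not tested.

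The other Atp2a3 probe set had the same direction at a much lower signal: -3.59, -3.96, -6.23 and -3.87 in the order replicate 1, replicate 2, standard array and array of open diet. It was above background on 2 arrays only, replicate 2 and the array of open diet, and there by a narrow margin. It adds little to the brighter one at this signal.

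Atp2a2 showed how far a call can rest on the probe set. Its brightest probe set, 1427250_at, had 1.65, 1.58, 1.80 and 1.65 on the 4 arrays in that order, so that all arrays lay within 0.22. The high-calcium mean of 1.61 ± 0.046 (SD, n = 2) differed from the standard array by -0.18 (SE 0.32, 95% interval -1.37 to 1.003). After centring, the differences of replicates 1 and 2 were -0.78 and -0.23. Probe set 1416551_at, also above background throughout, had 1.11, -0.43, -0.0043 and -0.32. Probe set 1452363_a_at had 0.17, -1.04, -1.14 and -1.58, and 1427251_at had -1.14, -1.72, -1.73 and -1.97. Each of these 3 was highest on replicate 1, by 1.12, 1.31 and 0.58 over the standard array, while replicate 2 differed from it by -0.43, 0.11 and 0.0081. Replicate 1 is the array with the high smooth muscle signal, and SERCA2 is the main SERCA pump of smooth muscle. The part of muscle RNA in these probe sets was not tested. The 2 dimmest Atp2a2 probe sets, 1437797_at and 1443551_at, were above background on 1 and 0 arrays. Their differences between the diets were the largest, at 2.19 and 3.08, whereas the 4 brighter probe sets had -0.18, 0.34, 0.71 and 0.30. The mean of all 6 probe sets differed by 1.07, the opposite sign to the brightest, and it includes the 2 dim ones.

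**Figure D3:**
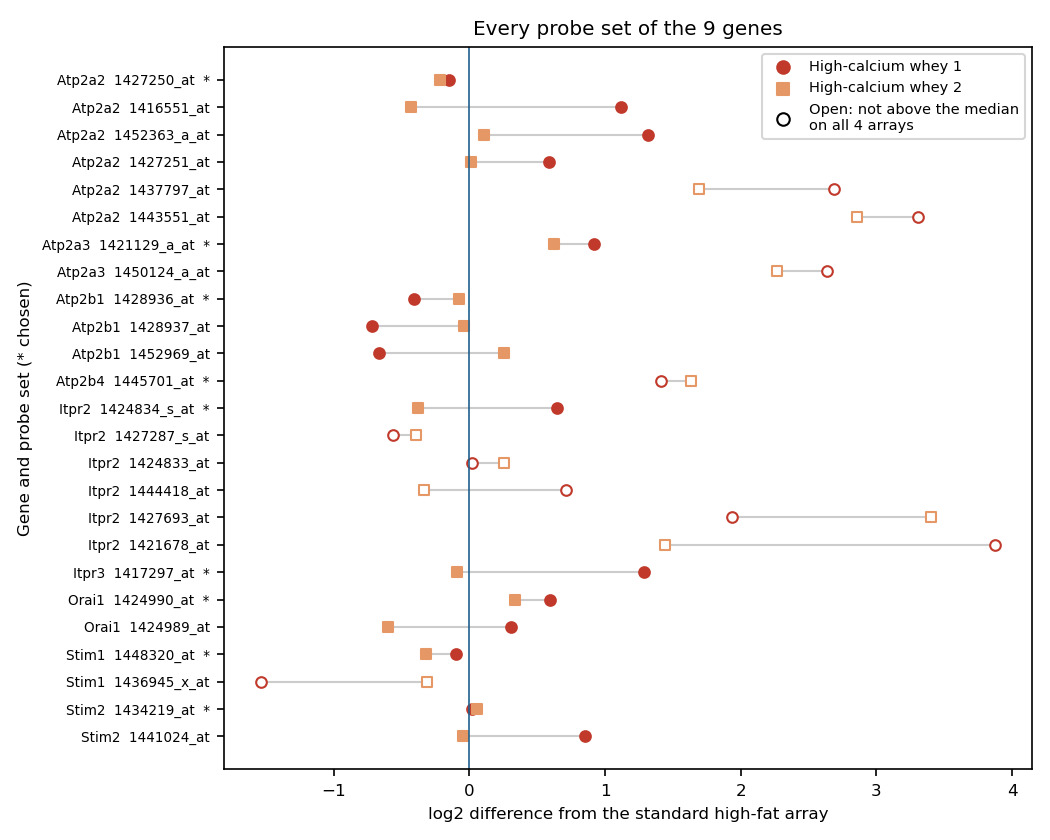
Log2 difference of each high-calcium array from the standard high-fat array for all 25 probe sets of the 9 genes, with an asterisk at the chosen one. Open symbols mark probe sets that were not above the median on all 4 arrays, and the largest differences, such as 3.88 for an Itpr2 probe set on replicate 1, are among them.

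Of the plasma membrane pumps, Atp2b1 (PMCA1, the calcium exporter found in nearly all cells) had log2 signals of -0.62 and -0.29 on high-calcium replicates 1 and 2, of -0.21 on the standard array and of 0.051 on the array of open diet (probe set 1428936_at). Replicate 1 was the lowest of the 4 arrays, and replicate 2 lay close to the standard array. The difference was -0.24 (SE 0.37, 95% interval -1.61 to 1.12). After centring, the differences of replicates 1 and 2 were -1.03 and -0.089. All 3 Atp2b1 probe sets were above background on every array and lowest on replicate 1, by -0.41, -0.72 and -0.67 from the standard array. On replicate 2 the same probe sets differed from it by -0.080, -0.041 and 0.25. Macrophage markers were lowest on replicate 1 too, with Cd68, a lysosomal protein of macrophages, at 1.89 there against 2.93 on the standard array, and their part was not tested.

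Atp2b4 (PMCA4) had a single probe set, 1445701_at, with log2 signals of -4.85, -4.64, -6.27 and -5.33 in the same order of arrays. All lie under the background of their array, so no fold is given. The fitted difference was 1.52 (SE 0.34, 95% interval 0.26 to 2.79, limma adjusted p = 0.978), and with 0.05 added to every intensity before the logarithm it shrank to 0.47.

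**Figure D4:**
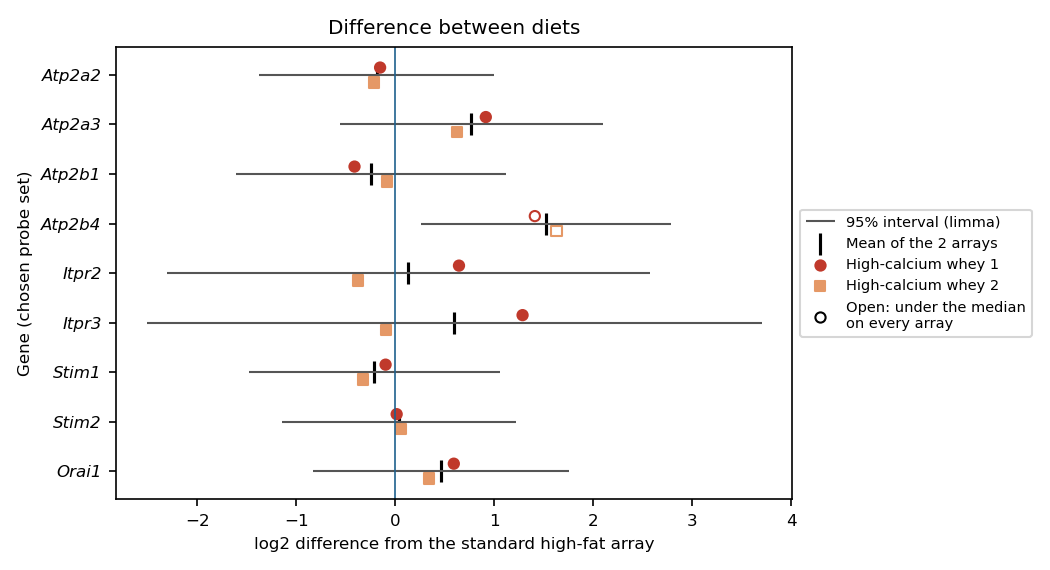
Log2 difference of each high-calcium array from the standard high-fat array for the chosen probe set of each gene, with the mean of both arrays and its 95% interval from limma. All intervals span 0 except that of Atp2b4, whose symbols are open because its signal was under background, and Itpr2 and Itpr3 have their replicates on opposite sides of 0.

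Both inositol trisphosphate receptors measured had a larger gap between the 2 high-calcium mice than difference between the diets. Such a gap was found in 5 of the 8 members above background and in 61.0% of the 11597 genes of higher signal, so it is common on these arrays. Itpr3, the receptor type known from secretory epithelia, had log2 signals of -1.66 and -3.04 on replicates 1 and 2, of -2.95 on the standard array and of -3.52 on the array of open diet (its only probe set, 1417297_at). Replicate 1 was high and the other 3 arrays lay within 0.56 of each other. The gap between the high-calcium arrays was 2.60-fold, larger than in 94.9% of the 11597 genes of higher signal. The difference between diets was 0.60 (SE 0.84, 95% interval -2.51 to 3.70), 1.29 for replicate 1 and -0.090 for replicate 2. Lymphocyte, smooth muscle and epithelial markers were highest on replicate 1 as well. The epithelial sum was also higher on the standard array (1.30) than on replicate 2 (-0.80), while Itpr3 had similar signals on both. The part of these markers was not tested.

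Itpr2, the receptor type widely found in the heart and liver, was read from 1424834_s_at, a probe set of the class that can match several transcripts. Its log2 signals were -1.51 and -2.53 on replicates 1 and 2, with -2.16 for the standard array and -2.59 for the array of open diet. Again replicate 1 was the highest, by 2.03-fold over replicate 2, and the high-calcium arrays lay on both sides of the standard array. The difference was 0.13 (SE 0.66, 95% interval -2.30 to 2.57). The 5 other Itpr2 probe sets were not above background on all 4 arrays. Their differences from the standard array ran from -0.56 to 3.88 on replicate 1 and from -0.40 to 3.40 on replicate 2, so they gave no common direction. Between the high-calcium arrays 23.3% of genes of higher signal were at least 1.5-fold apart, and so were 2 of the 8 members, Itpr2 and Itpr3.

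Of the genes of store-operated entry, Stim2 was level on its brightest probe set as deposited. Stim1 was slightly lower on both high-calcium arrays as deposited, and Orai1 was higher on both. Stim2, a sensor of small losses from the store, had log2 signals of 0.17, 0.21, 0.16 and 0.14 on replicate 1, replicate 2, the standard array and the array of open diet. All 4 arrays lay within 0.072, and the high-calcium mean of 0.19 ± 0.030 (SD, n = 2) differed from the standard array by 0.037 (SE 0.32, 95% interval -1.15 to 1.22). After centring, its differences were -0.61 and 0.049. The interval is far wider than the spread of the values. limma's SE also draws on the spread over all genes, and the few degrees of freedom (2.38) widen the interval further. A dimmer Stim2 probe set, 1441024_at, was not level: it had -2.47 on replicate 1 and -3.37, -3.33 and -3.26 on the other arrays.

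Stim1, the main sensor of store calcium, had log2 signals of -2.38, -2.61, -2.28 and -2.53 in the same order, a range of 0.32 with the standard array highest. It differed between diets by -0.21 (SE 0.34, 95% interval -1.48 to 1.06). After centring, Stim1 differed by -0.72 on replicate 1 and by -0.33 on replicate 2. Its other probe set, 1436945_x_at, of a class that can match several transcripts, was under background on replicate 1 (-4.44) and had -3.22, -2.91 and -2.77 elsewhere. Orai1, the pore of the entry channel, had -2.02, -2.27, -2.61 and -2.63, higher on both high-calcium arrays, by 1.51-fold for replicate 1 and 1.27-fold for replicate 2. After centring Orai1 was no longer higher on both, with differences of -0.031 and 0.33. Its mean of -2.15 ± 0.18 (SD, n = 2) differed from the standard array by 0.47 (SE 0.35, 95% interval -0.83 to 1.76). The other Orai1 probe set, matched to the same source accession, had -2.86, -3.76, -3.16 and -3.65, with the high-calcium arrays on opposite sides of the standard array. The higher signal of Orai1 thus stood on 1 of its 2 probe sets.

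Other genes of calcium handling, 134 in 10 lists, gave 121 measured genes. limma called 0 of them in either direction, as it called 0% of all genes. Of the 96 with a mean signal above background, 33 were higher and 22 were lower on both high-calcium arrays, beside 34.9% and 26.6% of all such genes. At least 1.5-fold higher or lower on both were 0 of the 96. Their median log2 difference was 0.027, with a median of 0.086 for replicate 1 and -0.014 for replicate 2.

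Among partners of store-operated entry, 12 genes above background had 7 higher and 5 lower on both arrays, with a median difference of 0.12. Saraf, which slows entry, differed by 0.13 (SE 0.33), Tmco1, a channel that leaks excess store calcium, by 0.18 (SE 0.33), and Pdia3, an oxidoreductase of the store, by -0.19 (SE 0.36). Other entry channels had 2 higher and 3 lower of 9. Trpm7, a magnesium and calcium channel with a kinase domain, differed by -0.44 (SE 0.34) and was lower on both arrays (-0.55 and -0.33). Piezo1, a mechanically gated channel, differed by 0.20 (SE 0.32), and P2rx4, an ATP-gated channel, had -0.53 on replicate 1 and 0.28 on replicate 2.

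Store chaperones and buffers were near level as deposited. After centring the median difference over all 17 genes of the list was -0.31. Of 16 genes above background 3 were higher and 2 lower on both arrays, with a median difference of 0.014. Calr, calreticulin, the main calcium buffer of the store, had log2 signals of 3.20, 3.39, 3.04 and 3.02 on replicate 1, replicate 2, the standard array and the array of open diet. It was higher on both high-calcium arrays by 0.16 and 0.34. Hspa5, the chaperone BiP, differed by 0.018 (SE 0.33) and Hsp90b1 by -0.026 (SE 0.38). Among other pumps Atp2c1, the calcium and manganese pump of the Golgi, had -0.92, -0.70, -0.37 and -0.83, with the standard array the highest of the 4, and differed by -0.44 (SE 0.34).

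Release channels other than the Itpr family and their partners had 6 higher and 3 lower of 12. Fkbp1a, an immunophilin that binds ryanodine receptors, differed by 0.18 (SE 0.32), and Tmbim6, a protein of the store membrane, by -0.096 (SE 0.33). Grina, of the same protein family, differed by -0.15 (SE 0.33). Genes of inositol trisphosphate production had 3 higher and 2 lower of 15. Plcb4, a phospholipase C, had 1.25 on replicate 1, against -0.16, 0.32 and 0.072 on the other arrays, so that it too was high on replicate 1 only. Gnaq, the G protein that activates the enzyme, differed by -0.033 (SE 0.33) and Plcb1 by -0.068 (SE 0.40).

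Calcineurin subunits, which pass the calcium signal on to NFAT, were close to level as deposited. Ppp3ca differed by -0.083 (SE 0.32), Ppp3cb by 0.0071 (SE 0.32) and Ppp3r1 by 0.16 (SE 0.32). In their list of calmodulin, calcineurin and NFAT genes 8 of 17 were higher and 3 lower on both arrays. Mitochondrial calcium genes had 3 higher and 3 lower of 10, with Vdac1 at -0.039 (SE 0.32), Vdac2 at -0.17 (SE 0.35), both outer membrane channels, and Mcur1, a regulator of the uniporter, at -0.16 (SE 0.33). Slc24a3, a sodium and calcium exchanger and the only gene of its list above background, differed by 0.22 (SE 0.34). Of the pump regulators Pln, Sln and Mrln 0 were above background on all 4 arrays. None of the genes named from these lists passed limma's test, whose adjusted p was 0.9999 in each case.

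**Figure D5:**
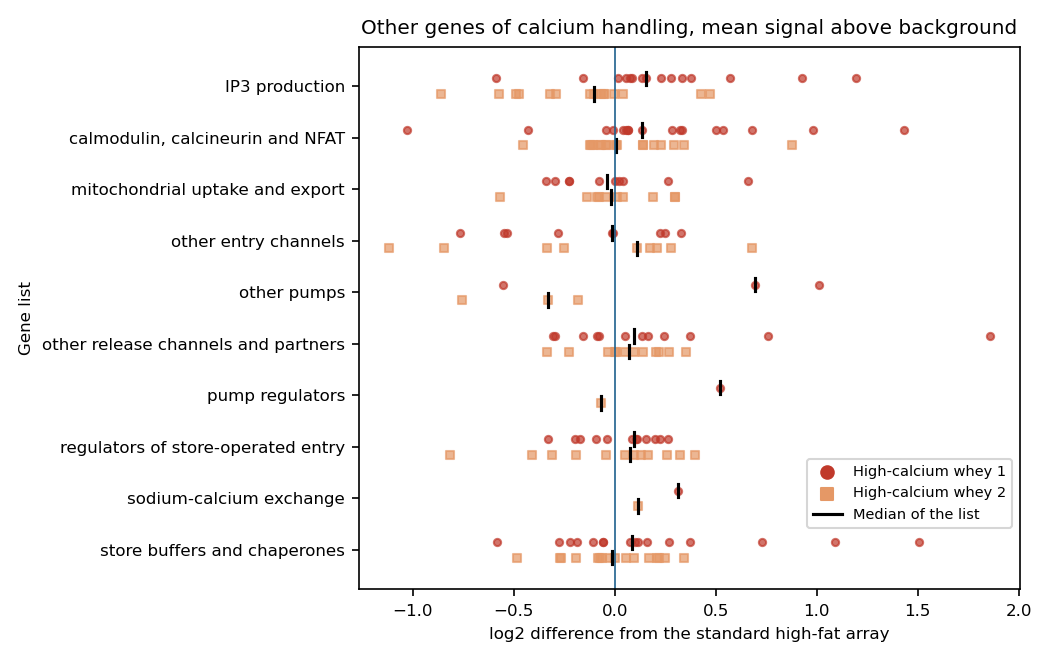
Log2 difference of each high-calcium array from the standard high-fat array for 96 other genes of calcium handling with a mean signal above background, 1 point per gene and array, with the median of each list and array as a black bar. In lists of 9 or more genes the bars lie between -0.037 and 0.15 for replicate 1 and between -0.11 and 0.11 for replicate 2.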

How the data were processed

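Epididymal fat RNA was hybridised to 4 Affymetrix mouse arrays of 45101 probe sets. The authors deposited linear intensity values, and the submitters' processing notes name RMA. The deposited intensities are not log2 values, and per array the minimum equals the median over 100; how they were scaled is not given. They were log2 transformed with no added constant or further normalization. GEO's platform annotation gave 34958 probe sets with 1 symbol, 932 with several and 9211 with none, and 34754 matched a current RefSeq record. Differences (high-calcium minus standard, 2 arrays against 1) were fitted over all genes with limma 3.58.1 in R 4.3.3, two-sided, Benjamini-Hochberg adjusted, threshold 0.05, with 1 residual degree of freedom and 2.38 after moderation; the standard array was assumed to vary like the high-calcium arrays. An exact permutation of 3 arrays cannot give a p under 0.333. The fit was checked on simulated data with the same spread for every gene. Spread differs between genes on the real arrays, so that check does not show the power of the fit here. Members, lists and the background level were chosen with earlier results of these data known. Named were all members, the 3 brightest genes of each calcium list above background on all 4 arrays (with any called, or 1.5-fold apart on both arrays above background: 0 further genes), and leading markers. Of 25 member probe sets fitted among 34958, limma called 0. Of the 134 other calcium genes, 121 matched the annotation, after the symbols of a pair of release channel partners were replaced by the older Mrvi1 and Lrmp; the rest were not analysed here. Alternatives changed the probe set rule, the scaling, the variance model, the filter on dim genes, the pseudocount and the replicates. Figures used matplotlib 3.10.9 under Python 3.11.15.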

Additional observations from a re-analysis of the deposited data

Results flagged for a closer look

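On the array of open diet, which no comparison uses, 2 probe sets of the calcium genes were above that array's background and at least 1.5-fold above the standard array. Probe set 1450124_a_at of Atp2a3 was higher there by 2.35 on the log2 scale, at -3.87 against -6.23. Probe set 1427693_at of Itpr2 was higher by 2.73, at -3.90 against -6.63. In both cases the standard array was under its background of -4.00, and the array of open diet exceeded its own background of -4.09 by little, so these differences are between dim signals. The brightest probe sets of Atp2a3 and Itpr2 differed between these arrays by 0.39 and -0.44.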

How the results depend on the processing

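Of 70 values of single members under the 8 alternatives with a test, 67 kept the direction and the side of the threshold and 3 turned. Of 18 values with 1 replicate left out, which have no test, 16 kept the direction and 2 turned. Atp2a2 turned to 1.07 when its probe sets were averaged, a mean that includes 2 dim probe sets with the largest differences. Itpr2 turned to -0.18 and Stim2 to -0.28 with arrays centred on their medians. With 1 high-calcium replicate left out, Itpr2 ranged from -0.38 to 0.65 and Itpr3 from -0.090 to 1.29, both negative without replicate 1. Centring lowers the mean difference of every gene by 0.32, and the median over all genes goes from 0.079 to -0.24; Atp2a3 then had 0.45. Atp2a3, Atp2b1, Atp2b4, Orai1 and Stim1 kept their direction in every alternative that gave a value; Atp2a3 had none without probe sets that can share transcripts, and Atp2b4 none with the filter on dim genes. Members called stayed at 0 in all 8 alternatives with a test, and their adjusted p was at least 0.977. All genes called were 96 after centring and 6 with a trend and robust estimation. Members at least 1.5-fold higher on both arrays, 2 as reported, were 4 with the mean of probe sets, 1 without probe sets that can share transcripts or with centring (Atp2a3 was lost), 1 with the filter on dim genes (Atp2b4 was lost), and 0 with a pseudocount of 0.05. Leaving out a replicate gave 2 to 5. Of all genes, 2304 higher as reported became 234 with that filter and 491 with the pseudocount, and without 1 replicate between 2932 and 5878. Lower genes, 817 as reported, became 1278 after quantile normalization, 1382 after centring, 117 with the filter, 279 with the pseudocount, and 1984 to 2889 without 1 replicate. The cause of these shifts was not tested, beyond the fewer genes that the filter leaves. No paired analysis was made because the labels give no pairing of mice between the diets.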
